A study of Mus musculus with 9 samples.

Results

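The genes described are 6 genes of protein breakdown, cell death, the p53 response and cell division at which chromatin regions were listed in myotubes given ammonium acetate: Ctsl, Capn2, Bcl2l11, Siva1, Trp53inp1 and Ccnd2. A region was assigned to a gene when the authors' annotation named that gene, or when it lay within 5 kb of the gene body in RefSeq. This gave 6 regions, 1 per gene, of the 1832 distinct regions in the authors' 3 lists, and 7 listings, since the Bcl2l11 region stood in 2 lists. The genes were chosen from those lists by their log2 fold changes and p-values, so the values below describe them and are not a test of the group.

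The assay was ATAC-seq, which reads out open chromatin through the places a transposase can reach and tag. The cells were C2C12 myotubes, multinucleate muscle cells that form when this mouse myoblast line is kept in horse serum. The 9 libraries, 3 per group, came from myotubes left untreated, myotubes given 10 mM ammonium acetate for 3 h, and myotubes given 10 mM for 24 h. C2C12 is 1 clonal line, the untreated group has no stated time, and acetate was never given with another cation, so ammonia and acetate cannot be told apart. Values per library and depths were not part of the tables used here: the spread between replicates enters through the authors' edgeR test alone. Because the assay is bulk, more open chromatin per nucleus cannot be told apart from a larger share of nuclei with open chromatin. The tables list changed regions only, so the labelled cell type could not be checked by levels. None of 16 myotube, 6 fibroblast or 4 adipocyte marker genes had a listed region. Of 5 myoblast markers Pax7 had 1, with a log2 fold change of -0.62 at 24 h against 3 h (the authors' deposited table, edgeR adjusted p = 0.473). Of other protein-coding genes, 1.91% had a listed region at 3 h against untreated, 0.341% at 24 h against untreated and 3.49% at 24 h against 3 h. With shares this small, nothing is read from the marker counts.

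Muscle breaks down its proteins through the proteasome, through lysosomes, where cathepsins cut proteins taken up by autophagy, and through calpains, calcium-activated proteases of the cytosol that release sarcomere proteins. Cell death through mitochondria is set off by BH3-only proteins, which bind and block the BCL-2 survival proteins. The transcription factor p53 responds to stress by switching on genes for arrest, repair and death, while D-type cyclins drive cells through G1 with the kinases CDK4 and CDK6.

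Promoter sequences of Bcl2l11 and Siva1 are given to show the start sites against which their regions are placed, since these were the 2 genes with the smallest adjusted p. Both are RefSeq windows on GRCm38.p6 (mm10), 5′ to 3′ on the plus strand, from 250 bases before the start site to 50 after it. Capitals mark matches to the motifs named in the next paragraph.

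Bcl2l11 (chr2:128125788-128126087): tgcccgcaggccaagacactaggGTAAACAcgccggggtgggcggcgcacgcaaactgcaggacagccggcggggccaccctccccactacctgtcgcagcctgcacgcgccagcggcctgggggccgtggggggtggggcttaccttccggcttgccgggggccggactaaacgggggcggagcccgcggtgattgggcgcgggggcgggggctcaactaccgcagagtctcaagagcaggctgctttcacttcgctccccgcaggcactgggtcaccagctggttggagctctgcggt

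Siva1 (chr12:112644578-112644877): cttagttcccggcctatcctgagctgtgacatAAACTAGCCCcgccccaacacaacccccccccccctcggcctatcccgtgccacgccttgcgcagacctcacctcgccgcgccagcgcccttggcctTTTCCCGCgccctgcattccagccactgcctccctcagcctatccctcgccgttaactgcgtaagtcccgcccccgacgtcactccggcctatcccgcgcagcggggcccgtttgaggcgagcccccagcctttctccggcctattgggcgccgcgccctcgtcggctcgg

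Neither window overlapped a listed region, and of all 32851 RefSeq windows of this length 0.381% did. The Bcl2l11 region lay 31.0 kb downstream of its window, and the Siva1 region 3137 bp downstream. Matches were sought on both strands to 6 motifs, FoxO (GTAAACA), E2F (TTTCCCGC), AP-1 (TGACTCA), CRE (TGACGTCA), the E-box (CACGTG) and the p53 half-site, in all these windows. In the Bcl2l11 window the capitals are 1 FoxO match, a sequence held by 3.65% of all windows. In the Siva1 window they are 1 p53 half-site (8.36% of all windows) and, nearer the start, 1 E2F match (1.07%). No 2 matches overlapped. GC content was 71.0% for Bcl2l11 and 69.0% for Siva1, against a median of 52.7% over all windows. RefSeq windows were also found for Capn2, with 1 AP-1 match (5.20% of windows), for Ctsl, with 1 E-box match (7.15%), and for a second Bcl2l11 start with no match. Windows for Trp53inp1 and Ccnd2 were not used here. The listed Ccnd2 region, described later, is the 1 of the 6 that lies beside the start site of its own gene. These matches are letters in a window and show no binding.

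At 3 h against untreated, 4 of the 6 genes had a listed region, all with a positive log2 fold change, and none passed an adjusted p of 0.05. For scale, 0.224% of the 146047 regions tested were listed with a positive value in this comparison. By the values listed, a region needed a raw p under 0.005 and a change of 1.5-fold or more, the values that chose the genes, so nothing is read from the count. The intervals given below come from the same F statistic as p. That limit on p therefore keeps the interval of every listed value off 0 by construction, here and at 24 h against 3 h. The median log2 fold change of the 4 regions was 0.82, and that of all 327 positive regions in the authors' deposited table was 0.77.

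Ctsl encodes cathepsin L, a lysosomal cysteine protease. Its region (chromosome 13, 64360733 to 64361120 on mm10) had a log2 fold change of 1.20 at 3 h, or 2.29-fold, with an approximate 95% interval of 0.61 to 1.79 (the authors' deposited table, edgeR p = 0.000382, adjusted p = 0.713). It lay 770 bp beyond the 3′ end of the RefSeq gene body, on the side away from the start. The authors' annotation placed it in the last exon and 3′ untranslated region of a longer Ctsl transcript, and at the promoter and first exon of an unnamed transcript on the opposite strand. ATAC-seq has no strand, so the region cannot be given to 1 of the 2. With a mean log2 CPM of 0.88 in the authors' deposited table, it was among the less covered regions, at or above 7.31% of the list.

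Capn2 encodes the large subunit of calpain 2 (m-calpain). Its region (chromosome 1, 182503539 to 182503749) was 211 bp wide and lay in an intron, with its near edge 13861 bp from the 5′ end of the gene. The authors' deposited table gave a log2 fold change of 0.93 at 3 h (1.90-fold, approximate 95% interval 0.33 to 1.53; edgeR p = 0.00422, adjusted p = 0.9999). Only 0.850% of the 588 listed regions were as narrow or narrower. The mean log2 CPM was 1.24.

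Ccnd2 encodes cyclin D2, and its region was the 1 of the 6 at the promoter of its own gene. It covered the bases from 60 to 592 bp upstream of the 5′ end of the gene (chromosome 6, 127152248 to 127152780), in a CpG shore, and also lay within the long noncoding RNA gene 9330179D12Rik on the opposite strand. A log2 fold change of 0.68 at 3 h (1.60-fold, approximate 95% interval 0.23 to 1.12; edgeR p = 0.00451, adjusted p = 0.9999) was given in the authors' deposited table. It was the smallest of the 4 values at 3 h. Its mean log2 CPM, 2.83, was the highest of the 4.

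Bcl2l11 encodes BIM, a BH3-only protein that triggers the mitochondrial death pathway. Its region (chromosome 2, 128157105 to 128157947) was 843 bp wide, the widest of the 6, and lay in an intron at 86.2% of the gene's length. It was the 1 region of the 6 in 2 lists. In the 3 h list it had a log2 fold change of 0.70 (1.63-fold, approximate 95% interval 0.24 to 1.17; the authors' deposited table, edgeR p = 0.00496, adjusted p = 0.9999). That p was the 585th of 588, just inside the limit of 0.005.

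**Figure D1:**
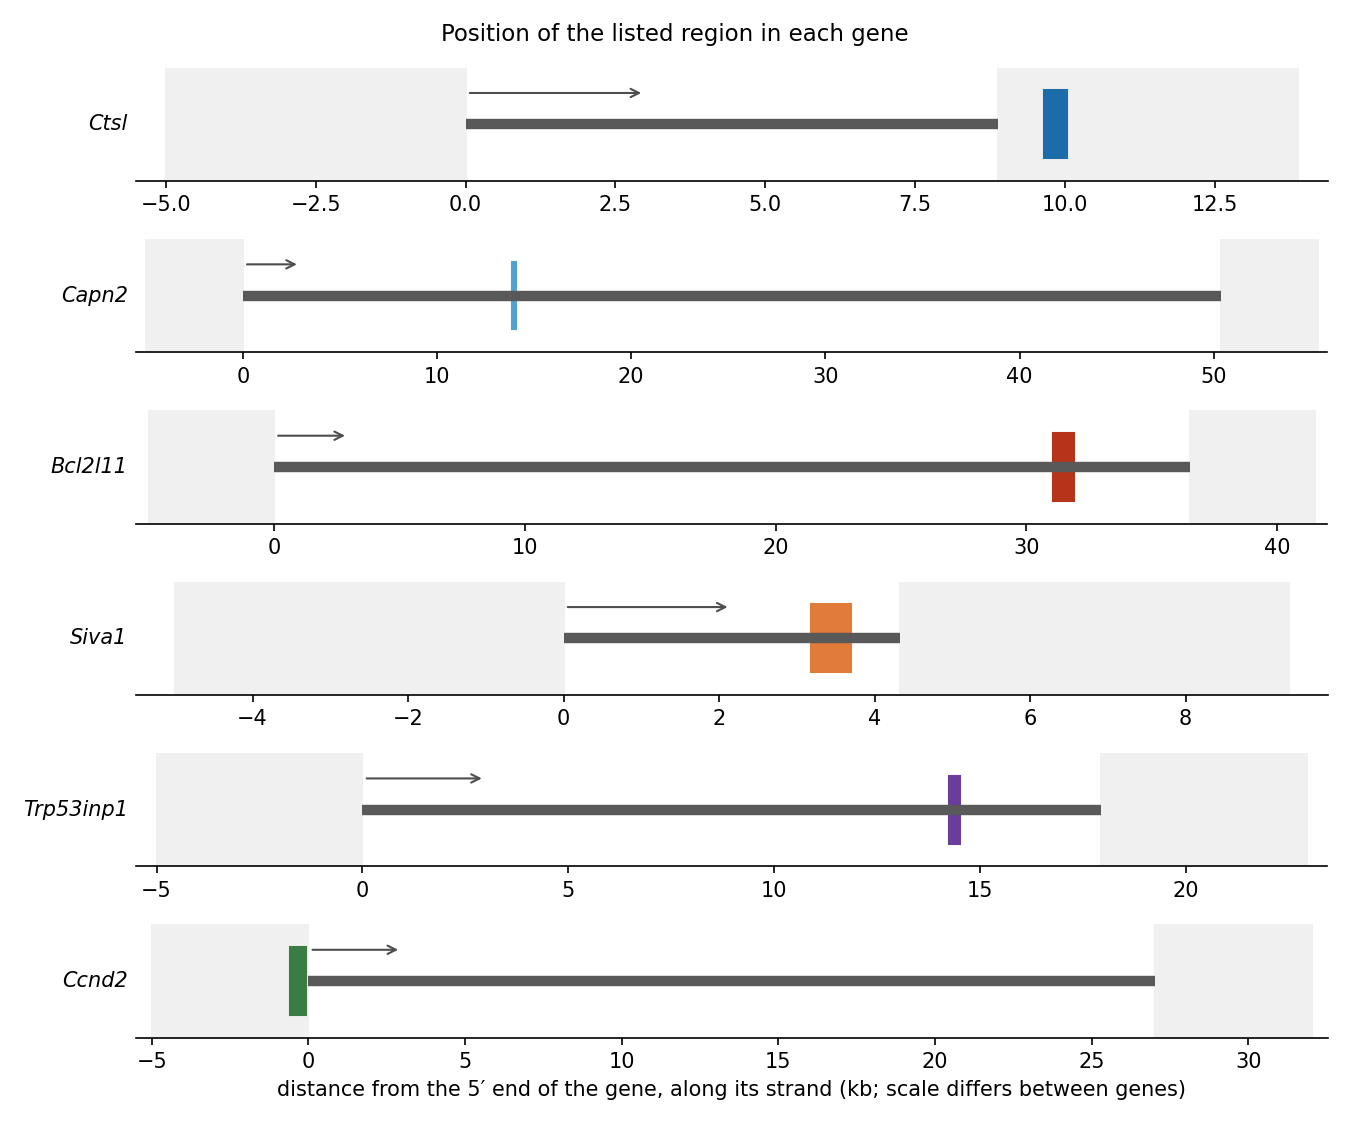
Each row is a gene drawn along its own strand (dark bar, RefSeq gene body; pale bands, the 5 kb flanks; arrow, direction of transcription) with its listed region as a coloured block, and the x axis is the distance in kb from the 5′ end. The Ccnd2 block sits just upstream of the start, the Ctsl block 770 bp past the end, and the other 4 inside the gene.

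At 24 h against 3 h, 3 of the 6 genes had a listed region, all with a negative log2 fold change, and again none passed an adjusted p of 0.05. In this comparison 0.385% of the 146047 tested regions were listed with a negative value. These listings chose the genes too, so this count is a description. The median of the 3 was -1.13, against -0.76 over all 563 negative regions in the authors' deposited table.

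The Bcl2l11 region had a log2 fold change of -1.13 at 24 h against 3 h (approximate 95% interval -1.62 to -0.63; the authors' deposited table, edgeR p = 0.000102, adjusted p = 0.257). Accessibility there at 24 h was thus 45.8% of that at 3 h. The 3 h libraries are on top of the first ratio and at the bottom of the second, so the opposite signs are not independent of each other.

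Siva1 encodes a pro-apoptotic protein first found through its binding to CD27, a member of the TNF receptor family. Its region (chromosome 12, 112648014 to 112648522) had the smallest p of the 6. At 24 h against 3 h its log2 fold change was -0.93 (0.524-fold, approximate 95% interval -1.31 to -0.56; the authors' deposited table, edgeR p = 3.5e-05, adjusted p = 0.222), 22nd of 1256 by p. It lay in an intron near the 3′ end of this short gene, 3186 bp from the 5′ end, in a CpG shelf. One transcript without a gene symbol in the authors' annotation has an exon there. Its mean log2 CPM of 3.31 was the highest of the 6 in the authors' deposited table, and its approximate standard error, 0.18, the lowest.

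Trp53inp1 encodes tumour protein p53-inducible nuclear protein 1, a stress protein that is a p53 target and also takes part in autophagy. Its region (chromosome 4, 11170689 to 11170944), 256 bp in the last exon and 3′ untranslated region, had the most negative of all 563 negative values in the list, -1.77 (0.293-fold; the authors' deposited table, edgeR p = 0.00214, adjusted p = 0.451). The approximate 95% interval ran from -2.83 to -0.72. Coverage was low, with a mean log2 CPM of -0.03 against a list median of 2.34, and only 2.15% of listed regions were covered as little or less. Its approximate standard error of 0.51 was as large as or larger than that of 99.1% of the listed regions.

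**Figure D2:**
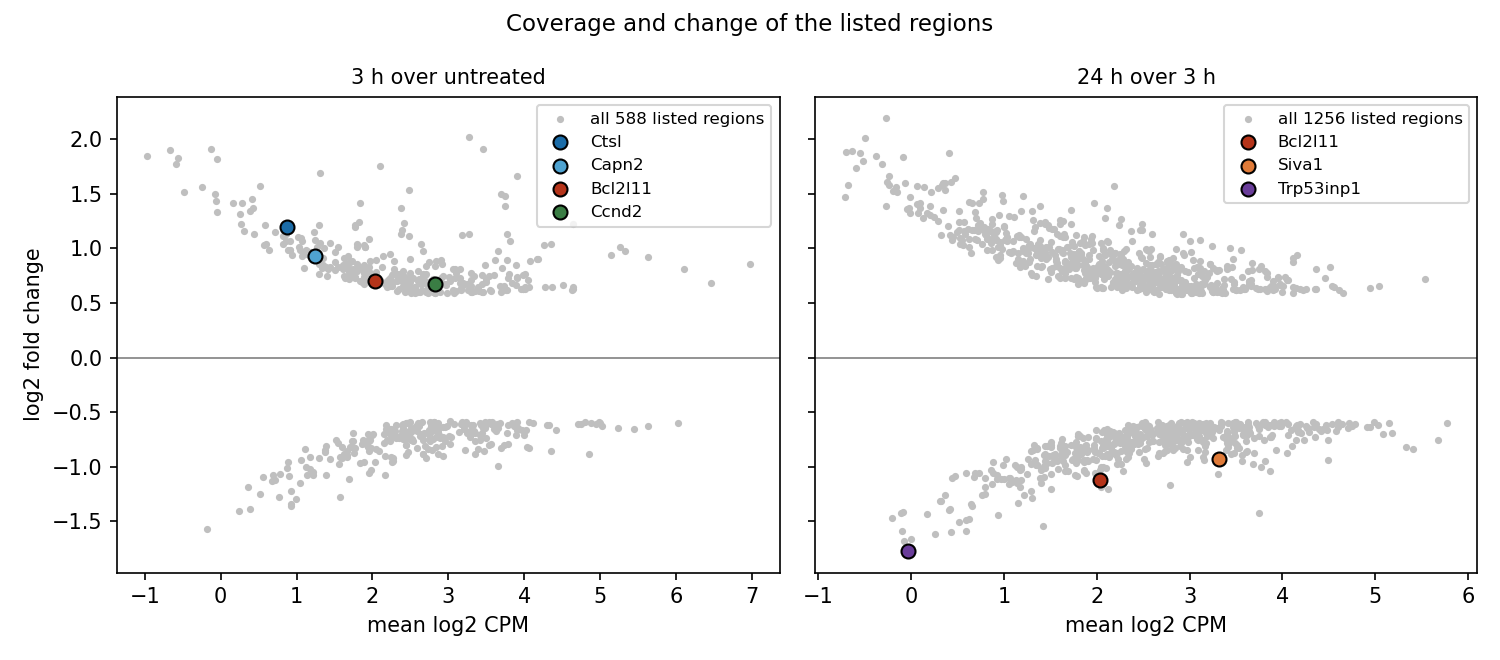
Each point is a listed region, with its mean log2 CPM on the x axis and its log2 fold change on the y axis, for 3 h over untreated (left) and 24 h over 3 h (right); coloured points are the regions at the 6 genes. Weakly covered regions are listed only with large changes, and Trp53inp1 at a mean log2 CPM of -0.03 lies lowest of all, while Siva1 lies further right, at 3.31.

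The order of the values followed coverage. Among the 4 regions with a positive value at 3 h, the log2 fold change was largest where the mean log2 CPM was lowest (Ctsl), then came Capn2, Bcl2l11 and Ccnd2 in the authors' deposited table. The same order held for the sizes at 24 h against 3 h, from Trp53inp1 through Bcl2l11 to Siva1. The limit on p admits a weakly covered region only with a large change, and the part of coverage in this order was not tested. Within each comparison the approximate intervals of all members overlapped. Differences between regions were not tested, so these are orders of the estimates alone.

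At 24 h against untreated, none of the 6 genes had a region in the list. This list is stricter: its 150 regions, 0.103% of those tested, all have an adjusted p below 0.05. What the other 2 comparisons allow for the 24 h value can be bounded. In the 3 regions present in all 3 lists the log2 fold changes of the comparisons added up, and a region's approximate standard error differed little between lists, with ratios from 0.93 to 1.04 over 54 regions shared by the 3 h list and the list of 24 h against 3 h. The ratios over the 30 and 81 regions that the 24 h list shares with these lists lay within that range. If both hold at these genes, the log2 fold change of the Bcl2l11 region at 24 h against untreated was -0.42, with an approximate 95% interval of -0.90 to 0.06 that includes 0.

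For the other 5 genes the same reasoning gives ranges. The Siva1 region had a value between -0.90 and -0.35 at 24 h against untreated, and between 0.03 and 0.58 at 3 h against untreated. For Trp53inp1 the 24 h range was -2.56 to -0.18, and the range at 3 h against untreated, -0.79 to 1.59, spanned 0. For Ctsl the 24 h value lay between 0.31 and 1.43. Capn2 (0.02 to 1.46) and Ccnd2 (0.01 to 1.07) could be close to 0 at 24 h. The sign of each 24 h range follows from the listing limits by construction and is no result. The Siva1 range at 3 h lies above 0 because the Siva1 region was missing from the 24 h list. Its edgeR p at 24 h against 3 h, 3.5e-05, was below the largest p of that list, 5.13e-05. That sign also rests on the assumed standard error, so nothing is read from it. These ranges hold for the estimates and carry no error of their own.

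**Figure D3:**
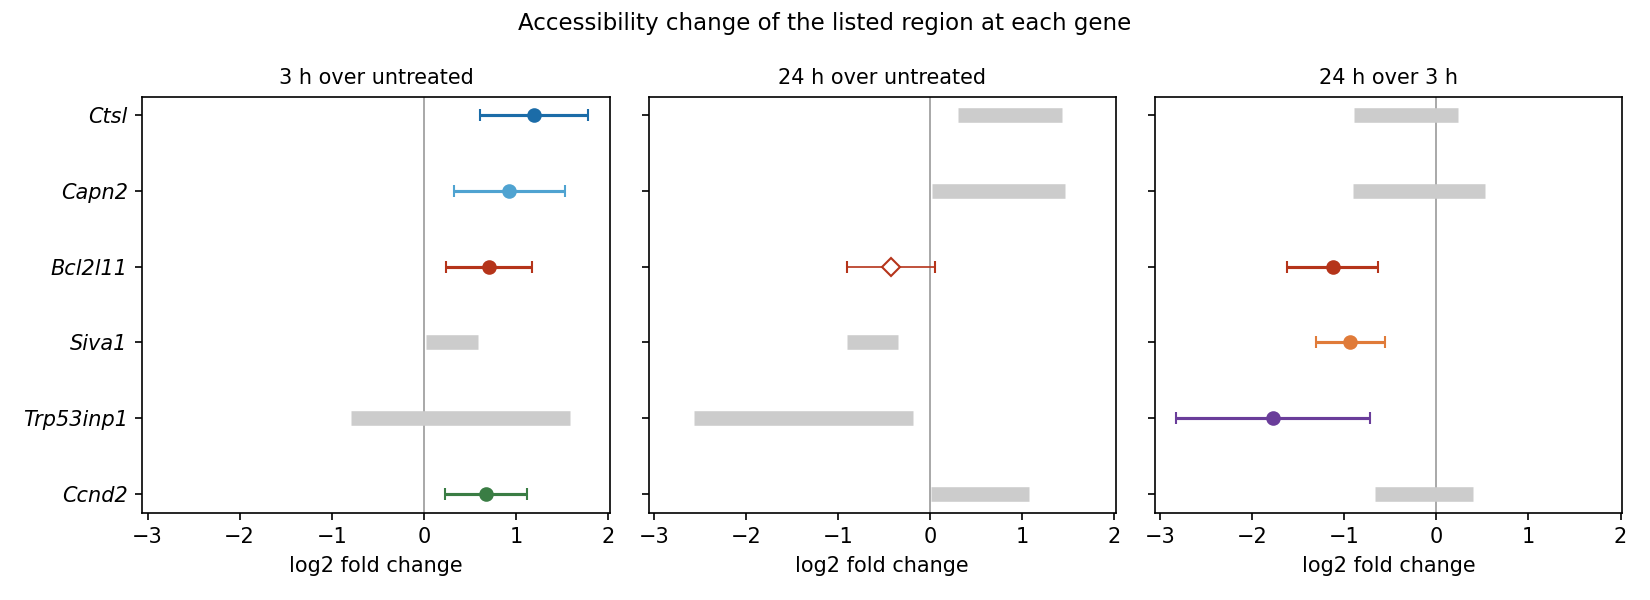
Rows are the 6 genes and panels the 3 comparisons, with the log2 fold change on the x axis. Filled points are listed values with approximate 95% intervals, grey bars are the ranges that a missing listing allows, and the open diamond is the Bcl2l11 value at 24 h over untreated obtained by adding the other 2, -0.42. All 4 points at 3 h are right of 0 and all 3 points at 24 h over 3 h are left of it. The listing limit on p keeps the intervals of the filled points off 0.

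Only 1832 regions were listed over the whole genome, and their spacing elsewhere was not compared with that around these genes. The nearest listed region outside the 5 kb flanks lay 16.6 kb past the 3′ end of Bcl2l11, within the long noncoding RNA gene Gm14009 (chromosome 2, 128179133 to 128180468). It had a log2 fold change of -0.59 at 24 h against 3 h (the authors' deposited table, edgeR p = 0.0034, adjusted p = 0.484), the same sign as the Bcl2l11 region. The region numbers of the authors run in genome order in all 1832 regions, and by them 2 regions stand between this one and the Bcl2l11 region, neither of them listed. At the other 5 genes no listed region outside the flanks was nearer than the one 564 kb from Capn2.

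The Bcl2l11 region was 1 of 51 found in both the 3 h list and the list of 24 h against 3 h and not in the third, and 33 of the 51 had a positive value followed by a negative one. The regions at a named gene with the closest pair of log2 fold changes, among 28, were at Fgfrl1 (0.74 and -0.91), Igdcc3 (0.61 and -0.90) and Plekha7 (0.64 and -0.87) in the authors' deposited table. Their Euclidean distances from the Bcl2l11 pair, over 2 comparisons, were 0.22, 0.25 and 0.27. All 3 had a smaller negative value than Bcl2l11.

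A set of 7 gene lists with 176 genes in all places the 6 in their pathways. At 3 h against untreated, 9 of the 176 genes had a region, all with positive values, and at 24 h against 3 h 8 had one, 7 with negative values and 1 with a positive value. No region of these lists passed an adjusted p of 0.05. Without the 6 genes, which were picked for being listed, 5 of 170 (2.94%) had a region at 3 h, against 1.91% of other protein-coding genes. At 24 h against 3 h it was again 5 of 170 (2.94%), against 3.49%. At 24 h against untreated it was 0 of 170, against 0.341%. Again without the 6 genes, the median log2 fold change was 1.07 over 6 positive regions at 3 h, beside 0.77 over all 327 positive regions listed. It was -0.60 over 5 negative regions at 24 h against 3 h, beside -0.76 over all 563. The 6 positive regions came from 5 genes, since Btg2 had 2, and the same 2 Btg2 regions were among the 5 negative ones. Of the other positive regions, those of Ctsd (1.15) and E2f6 (1.02) lay above 0.77, and those of Ctsa and Apaf1 (0.68 each) below it. Medians without Btg2 were not computed, so nothing is read from these differences.

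Of the 22 genes for lysosomal proteases and their inhibitors, 3 had a region at 3 h, and besides Ctsl these were the cathepsin genes Ctsd and Ctsa. The Ctsd region, in an intron, had a log2 fold change of 1.15 (edgeR adjusted p = 0.990), and the Ctsa region, over exon and intron sequence, one of 0.68 (0.9999), as listed in the authors' deposited table. Ctsd encodes the aspartic protease cathepsin D, and Ctsa a carboxypeptidase that also protects other lysosomal enzymes. None of the 22 had a region at 24 h against 3 h, where 3.49% of other protein-coding genes had one. In the calpain system Capn2 was the 1 gene of 12 with a region, and in the BCL-2 family Bcl2l11 was the 1 gene of 19.

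Among 31 genes of caspases, death receptors and inhibitors of apoptosis, Apaf1, which encodes the scaffold of the apoptosome, had an intron region at 3 h with a log2 fold change of 0.68 (the authors' deposited table, edgeR adjusted p = 0.990). At 24 h against 3 h this group had 4 genes, 3 with negative values and 1 with a positive one. Besides Siva1, the negative values were -0.59 at the promoter of Tradd, a death receptor adaptor gene, a region shared with Fbxl8, and -0.60 at a region 308 bp from Cd27 that lies in Tapbpl (the authors' deposited table, edgeR with adjusted p = 0.464 and 0.466). Casp12, which encodes a caspase of the endoplasmic reticulum, had a value of 0.75 (the authors' deposited table, edgeR adjusted p = 0.401).

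Of the 40 p53 pathway genes, Btg2, an antiproliferative early response gene, was the 1 listed besides Trp53inp1. The 2 Btg2 regions lay 17 and 836 bp outside the gene body, and the authors' annotation did not name Btg2 for them. In the authors' deposited table they were 2.82-fold and 2.19-fold at 3 h (edgeR adjusted p = 0.117 and 0.338). At 24 h against 3 h they were 0.544-fold and 0.498-fold (edgeR adjusted p = 0.401 and 0.278). They thus showed the sign pattern of the Bcl2l11 region at higher coverage (mean log2 CPM 3.70 and 3.77). Among 30 genes of the G1 phase, E2f6, a repressor of the E2F family, joined Ccnd2 at 3 h with a log2 fold change of 1.02 (the authors' deposited table, edgeR adjusted p = 0.939). Of 27 autophagy and FoxO genes, Foxo6 alone was listed, with -0.60 at 24 h against 3 h (the authors' deposited table, edgeR adjusted p = 0.401).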

How the data were processed

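The authors deposited 1 table per comparison from 9 ATAC-seq libraries of C2C12 myotubes, with 1 line per region and annotation, and lines were collapsed to regions. Per the submitters' processing notes, the tools included Trim Galore 0.4.5, cutadapt 1.15, Bowtie2 2.3.4.1, Picard 2.20.2, MACS2 and edgeR, on mm10. Read shifting, pooling of libraries for peak calls and other settings were not given in the sources used here. As deposited values, the log2 fold change, mean log2 CPM, raw p-value and adjusted p-value (Benjamini-Hochberg) per region were taken from the authors unchanged. The F statistic is a score the authors deposited.

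The number of regions tested was recovered from the 24 h list, as adjusted p times rank over p. F and p together gave 21.5 denominator degrees of freedom. This is more than 9 libraries can give, so the test and the intervals do not rest on the replicates of each region alone. Dividing the size of a log2 fold change by the root of F gave an approximate standard error, and 95% intervals used the t distribution. Recovery was tested on simulated data. Gene bodies and promoter sequences came from RefSeq (GRCm38.p6). A value not listed was bounded by the list's p and fold limits, assuming the region's standard error and additive log2 fold changes. For 24 h against untreated the limit was the smallest listed F.

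The genes and lists were chosen with earlier results of these data known. The 6 genes are all named. Of the pathway lists, up to 4 genes per list, comparison and direction were to be named by smallest p. Likeness was the Euclidean distance in listed log2 fold change, for regions in 2 lists. Other assignments of regions to genes and other limits on p, fold and coverage were tried. Software was Python 3.11.15 with scipy 1.17.1, numpy 2.4.6, pandas 2.3.3 and matplotlib 3.10.9.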

Additional observations from a re-analysis of the deposited data

How the results depend on the processing

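No paired analysis was possible because the tables give regions and no libraries, and for the same reason no replicate could be left out. The planned replacement of a listed value by the sum of the other comparisons was not run, since none of the 6 regions stood in all 3 lists. The number of regions at the 6 genes was 4 at 3 h against untreated and 3 at 24 h against 3 h, and both became 0 at an adjusted p below 0.05. With the strictest list's raw p limit (24 h against untreated) used for all lists they became 0 and 1 (Siva1). With the gene body alone the 3 h count was 2, with the stricter fold limit it was 2, and within 5 kb of the transcription start each count was 1 (Ccnd2 at 3 h, Siva1 at 24 h against 3 h). The files' own annotation, a 20 kb flank and a mean log2 CPM above 0 left both counts within 1.5 times, the last without Trp53inp1. The count at 24 h against untreated was 0 in every one of these settings. Only the 20 kb flank could have raised it, since the others can only remove regions. The pathway genes with a listed region, 9 at 3 h and 8 at 24 h against 3 h, became 1 and 1 with that raw p limit. With the 20 kb flank they became 13 and 15, and with the authors' own annotation 8 and 6. Depth per library is unknown and limits every value here.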
